A study of Mus musculus with 6 samples.

Results

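The genes described here encode the enzymes that feed and run the tricarboxylic acid (TCA) cycle and oxidize fatty acids inside mitochondria. They were chosen by gene symbol as a list of 38 genes, from citrate synthase (Cs) to the acyl-CoA thioesterase Acot2, and 37 of them were measured by a probe set assigned to a single gene, out of 18193 genes on the array. The exception was Cpt1b, the muscle form of carnitine palmitoyltransferase 1, whose only probe set is also assigned to another gene. RNA came from white fat of 3 KSR2-/- mice and 3 WT mice, all C57Bl6 females aged 6 months, with each mouse on its own Affymetrix array. KSR2 is a scaffold of the Raf, MEK and ERK kinases that has also been described as a partner of the energy-sensing kinase AMPK, and mice without it become obese. Neither the fat depot nor the deleted part of Ksr2 is given in the sources used here, and nothing says whether the Ksr2 probes lie in it. The Ksr2 probe set read log2 intensities of 4.47, 4.28 and 4.26 in KSR2-/- mice 1 to 3, against 4.74, 4.04 and 4.47 in WT mice 1 to 3 (difference −0.08, SE 0.21, limma adjusted p = 0.935), so it does not check the genotype labels.

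Pyruvate made from glucose enters mitochondria, where the pyruvate dehydrogenase complex turns it into acetyl-CoA and pyruvate carboxylase turns it into oxaloacetate. The TCA cycle joins these products to citrate and oxidizes it, passing electrons to the respiratory chain. Long-chain fatty acids enter as carnitine esters, through a step catalysed by carnitine palmitoyltransferase 1 that malonyl-CoA inhibits, and are then shortened to acetyl-CoA by repeated turns of beta-oxidation. In white fat, citrate also leaves the mitochondria as the carbon source for fatty acid synthesis, and pyruvate carboxylase supplies carbon for the glycerol of triglycerides.

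Any 2 arrays correlated at 0.955 to 0.988 over the genes. By the animal numbers in the labels, KSR2-/- 3 and WT 3 have low numbers and are called the low-number pair here, while the other 4 mice have high numbers and are called the high-number set. On WT 3 the 3′ probe set of the Gapdh control exceeded the 5′ one by 4.18 log2, against 0.07 to 1.46 on the other 5 arrays. This difference is a measure of RNA degradation, and its part in the results was not tested. Intensities are log2 values, differences are KSR2-/- minus WT on the log2 scale, and standard errors (SE) and 95% intervals are those of a limma fit over all 18193 genes.

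Of the 37 genes, 36 had a lower mean in KSR2-/- fat and 1, Cpt1a, a higher one. Over all genes 55.6% had a lower mean. The median difference was −0.47 log2 for the 37 genes and −0.04 for all genes. None of the 37 passed the limma test at an adjusted p under 0.05 (0 of 37, adjusted p 0.21 to 0.984), a threshold that 1 gene of the whole array passed, or 0.0055%. That gene was Il13ra2, a receptor for interleukin 13. At an unadjusted p under 0.05, 16 of the 37 were lower, where 5.38% of all genes were, and 1 was higher, where 6.71% of all genes were. All 37 genes belong to the brighter genes on the array, those at or above the median mean. In a limma fit of these brighter genes alone, 11 of the 37 were lower at that threshold, where 5.39% of the brighter genes were.

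The 3 KSR2-/- values lay wholly below the 3 WT values in 15 of the 37 genes, where 8.56% of all genes did so. They lay wholly above them in Cpt1a, where 7.72% of all genes did so. In the other 21 genes the genotypes overlapped. KSR2-/- 1 gave the lowest of the 6 values in 31 genes and WT 2 the highest in 24. The mean of all 37 genes lay at −0.85, −0.4 and −0.19 log2 from the WT mean in KSR2-/- 1, 2 and 3, while WT 1, 2 and 3 lay at −0.26, 0.26 and 0.0 from it. WT 1 thus lay lower than KSR2-/- 3 in this mean. Within the high-number set 36 of the 37 genes, all but Cpt1a, were lower in KSR2-/-, and within the low-number pair 32 were lower. The mean difference of all 37 genes, with Cpt1a, was −0.62 in the high-number set and −0.2 in the low-number pair.

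**Figure D1:**
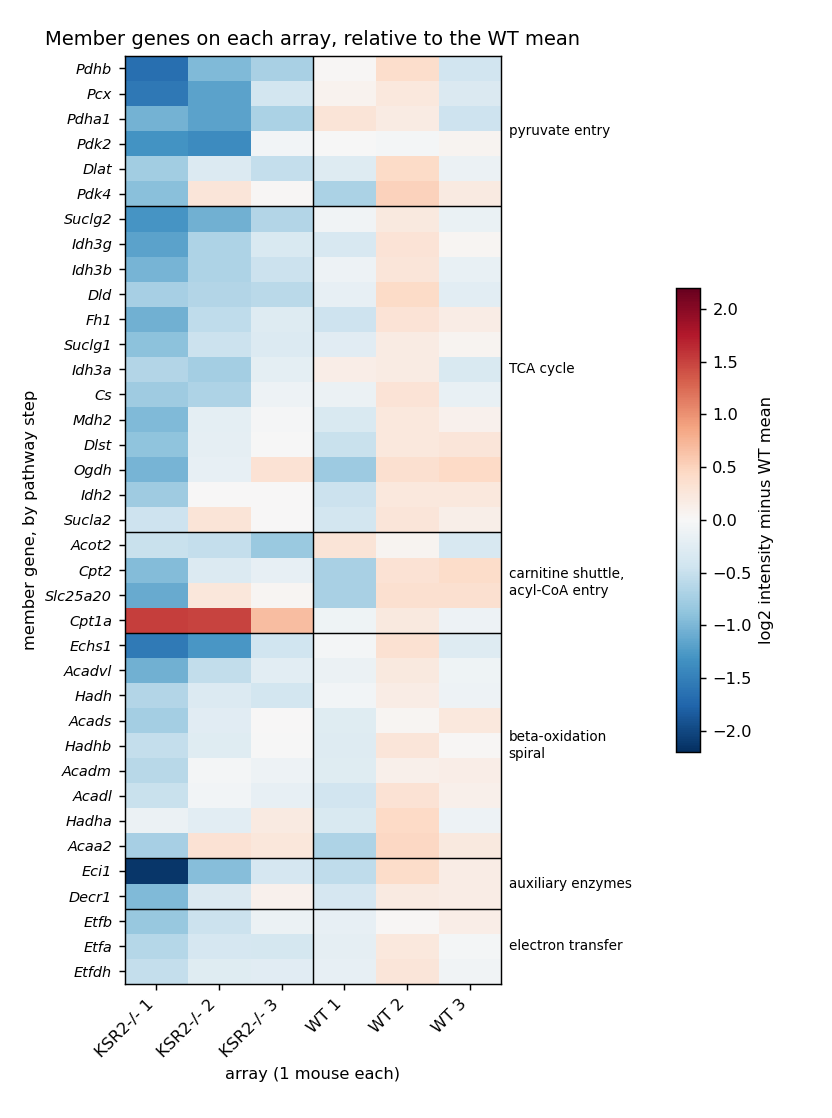
Log2 intensity of each of the 37 genes (rows, by pathway step) on each array (columns, KSR2-/- left and WT right), shown as the difference from that gene's WT mean. Blue is lower and red higher. KSR2-/- 1 is the lowest array in 31 genes, and Cpt1a alone is higher on all 3 KSR2-/- arrays than on all WT arrays.

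Genes at the entry of pyruvate had a median difference of −0.95, and all 6 had a lower mean in KSR2-/-. Pdhb, the beta subunit of the pyruvate dehydrogenase E1 enzyme, read 9.98, 10.67 and 10.94 in KSR2-/- mice, against 11.67, 12.04 and 11.23 in WT mice. The groups did not overlap, and KSR2-/- 3 and WT 3 were the nearest values. The means were 10.53 ± 0.49 in KSR2-/- and 11.65 ± 0.41 in WT (SD, n = 3 each), so that the KSR2-/- level was 0.462 times the WT level (difference −1.11, SE 0.31, limma adjusted p = 0.266). Pdha1, the X-linked alpha subunit of the same enzyme, read 10.61, 10.46 and 10.94 in KSR2-/- and 11.92, 11.82 and 11.19 in WT. Here too no KSR2-/- value reached a WT value, with a difference of −0.98 (SE 0.24, limma adjusted p = 0.248). The second probe set of each gene gave a like value, −1.18 (SE 0.37) for Pdhb and −1.28 (SE 0.55) for Pdha1.

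Pcx, pyruvate carboxylase, read 9.76, 10.15 and 10.93 in KSR2-/- and 11.4, 11.57 and 11.02 in WT. The groups were set apart by a narrow gap between the mice of the low-number pair, and the difference of −1.05 (SE 0.32, limma adjusted p = 0.287) was −1.53 in the high-number set and −0.1 in that pair. Dlat, the acetyltransferase core of the complex, differed by −0.53 (SE 0.23), and its 2 other probe sets by −0.64 and −0.67 (SE 0.21 each).

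The kinases that switch the complex off by phosphorylation were measured for 2 members. Pdk2 read 5.97, 5.91 and 7.22 in KSR2-/- and 7.28, 7.24 and 7.34 in WT. KSR2-/- 3 lay next to the WT mice and the other KSR2-/- mice clearly below them, giving a difference of −0.92 (SE 0.35, limma adjusted p = 0.372), −1.32 in the high-number set and −0.11 in the low-number pair. Pdk4, the form induced by fasting and fatty acids, read 7.93, 9.12 and 8.88 in KSR2-/- and 8.15, 9.35 and 9.05 in WT. These values overlapped throughout, with a 95% interval of the difference from −1.17 to 0.76. Within an array, the log2 value of Pdk2 minus that of Pdk4 was −1.96, −3.21 and −1.66 in KSR2-/- and −0.87, −2.11 and −1.71 in WT. The genotypes overlapped in it (two-sided exact permutation p = 0.5, n = 3 each, where 0.1 is the smallest p possible), so unequal change of the 2 kinases was not shown.

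**Figure D2:**
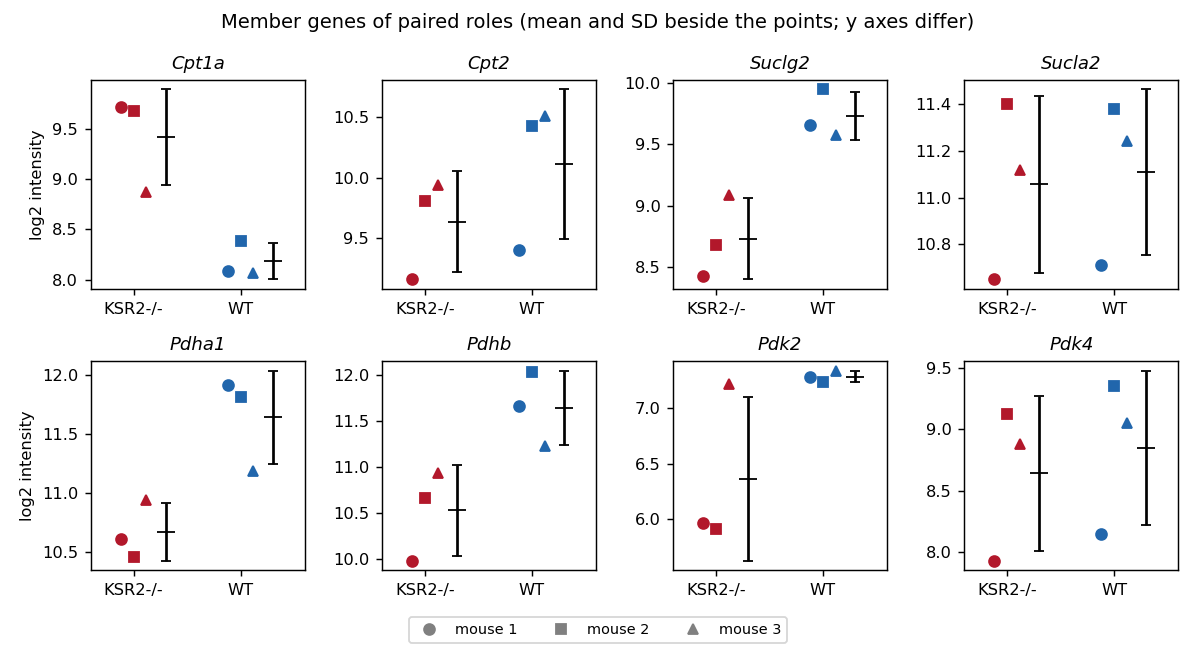
Log2 intensity of 8 genes in KSR2-/- (red) and WT (blue) mice, with the mean and SD beside the 3 points of each genotype and the same symbol for the same mouse number. Cpt1a lies higher and Suclg2, Pdha1 and Pdhb lower in every KSR2-/- mouse than in any WT mouse, Pdk2 does so by a narrow margin for KSR2-/- 3, and Cpt2, Sucla2 and Pdk4 overlap.

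In the TCA cycle itself all 13 genes had a lower mean in KSR2-/-, with a median of −0.54 and differences from −1 to −0.05. Suclg2 encodes the GTP-specific beta subunit of succinyl-CoA ligase and had the smallest p of the cycle. It read 8.43, 8.68 and 9.09 in KSR2-/- and 9.66, 9.95 and 9.58 in WT, with no overlap, so that the KSR2-/- level was 0.501 times the WT level (difference −1.0, SE 0.22, limma adjusted p = 0.212). Its other probe set gave −0.97 (SE 0.36). Sucla2, the ATP-specific beta subunit that takes the same place in the enzyme, read 10.65, 11.4 and 11.12 in KSR2-/- and 10.71, 11.38 and 11.24 in WT. The genotypes were interleaved, and the 95% interval of the difference ran from −0.68 to 0.57. Suclg1, the alpha subunit that both forms share, differed by −0.56 (SE 0.22) without overlap.

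Within an array, the log2 value of Suclg2 minus that of Sucla2 was −2.21, −2.72 and −2.03 in KSR2-/- and −1.05, −1.43 and −1.66 in WT. It was lower in every KSR2-/- mouse than in any WT mouse, by 0.94 on average (−2.32 ± 0.36 in KSR2-/- and −1.38 ± 0.31 in WT, SD, n = 3 each, two-sided exact permutation p = 0.1, the smallest possible).

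By their brightest probe sets the 3 subunits of NAD-dependent isocitrate dehydrogenase had like differences. With all probe sets of a gene averaged, they were less alike, at −0.36 (SE 0.22) for Idh3a, −0.47 (SE 0.22) for Idh3b and −0.8 (SE 0.25) for Idh3g. Idh3b read 9.78, 10.13 and 10.34 in KSR2-/- and 10.7, 11.07 and 10.65 in WT, with no overlap (difference −0.72, SE 0.21, limma adjusted p = 0.277). Idh3g read 9.7, 10.19 and 10.54 in KSR2-/- and 10.52, 11.18 and 10.92 in WT, where only KSR2-/- 3 reached the WT range (difference −0.73, SE 0.27), and its other probe set gave −0.86 (SE 0.26). Idh3a, the catalytic alpha subunit, differed by −0.54 (SE 0.22), which was −0.86 in the high-number set and 0.11 in the low-number pair. Idh2, the NADP-dependent mitochondrial isozyme, differed by −0.26 (95% interval −0.97 to 0.45).

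Cs, citrate synthase, which joins acetyl-CoA to oxaloacetate and is widely used as a marker of mitochondrial content, read 10.22, 10.33 and 10.9 in KSR2-/- and 10.88, 11.3 and 10.84 in WT. KSR2-/- 3 overlapped with WT 1 and 3, and the difference of −0.52 (SE 0.24, limma adjusted p = 0.444) was −0.82 in the high-number set and 0.06 in the low-number pair. Dld, the dihydrolipoamide dehydrogenase that serves both the pyruvate and the 2-oxoglutarate dehydrogenase complexes, read 9.47, 9.55 and 9.61 in KSR2-/- and 10.02, 10.62 and 9.96 in WT. The KSR2-/- values were tightly grouped below every WT value (difference −0.66, SE 0.21, limma adjusted p = 0.308). Fumarase (Fh1) differed by −0.63 (SE 0.28) and mitochondrial malate dehydrogenase (Mdh2) by −0.4 (SE 0.28). The 2-oxoglutarate dehydrogenase genes Ogdh (−0.29, SE 0.44) and Dlst (−0.36, SE 0.3) had intervals that included 0. Among dimmer probe sets the only further one of Ogdh (0.43, SE 0.16) and 2 of the 3 further ones of Dlst (0.45, SE 0.37, and 0.17, SE 0.26) had the opposite sign.

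**Figure D3:**
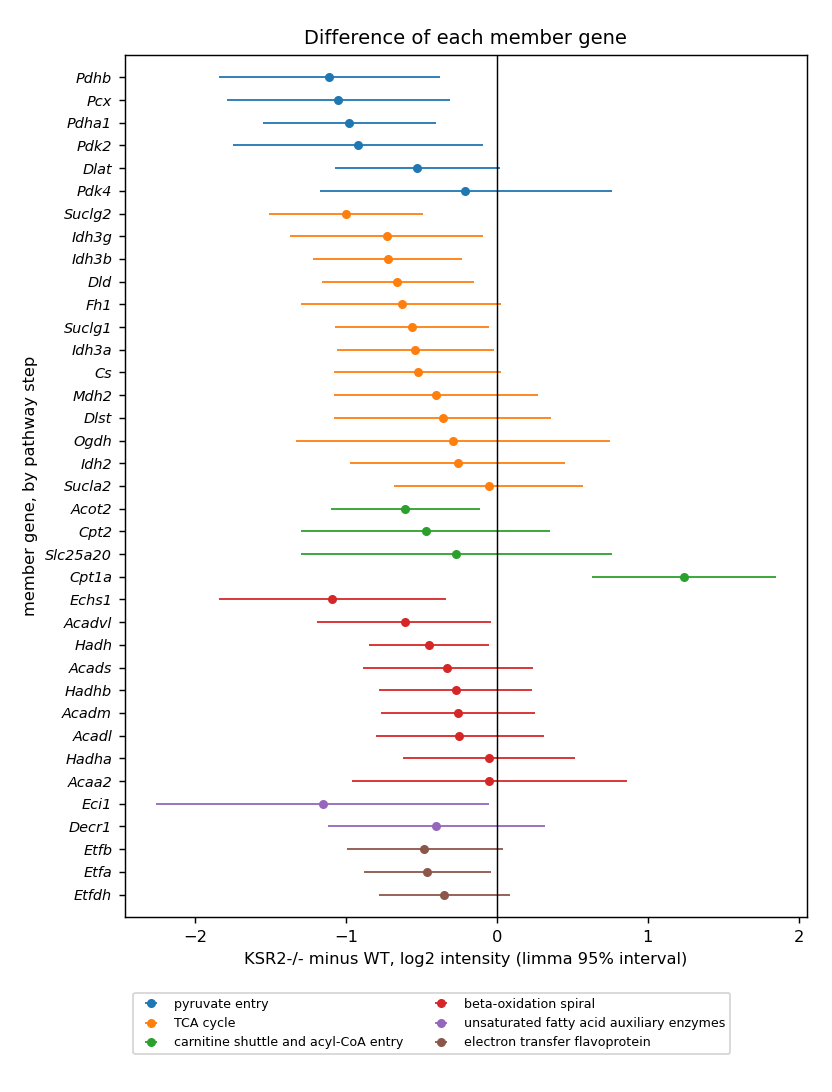
Difference between KSR2-/- and WT in log2 intensity for each of the 37 genes (points, by pathway step) with the limma 95% interval (bars). Of the intervals, 17 do not include 0, that of Cpt1a on the higher side and 16 on the lower side, and none of the genes passes the adjusted threshold.

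At the entry of fatty acids Cpt1a stood against every other gene. It encodes the liver form of carnitine palmitoyltransferase 1 in the outer mitochondrial membrane, and it read 9.71, 9.67 and 8.87 in KSR2-/-, against 8.09, 8.39 and 8.07 in WT. All KSR2-/- values exceeded all WT values, KSR2-/- 3 by the least. The means were 9.42 ± 0.47 in KSR2-/- and 8.18 ± 0.18 in WT (SD, n = 3 each), a KSR2-/- level 2.36 times the WT level (difference 1.24, SE 0.26, unadjusted p = 0.00195 and adjusted p = 0.21 by limma). It was 1.46 in the high-number set and 0.8 in the low-number pair, and its 2 other probe sets gave 1.18 (SE 0.32) and 1.23 (SE 0.36).

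The later steps of the carnitine shuttle did not share this. Cpt2, the inner-membrane partner of Cpt1a, read 9.16, 9.81 and 9.94 in KSR2-/- and 9.4, 10.43 and 10.51 in WT. The genotypes overlapped (difference −0.47, SE 0.35, limma adjusted p = 0.673). Within an array, the log2 value of Cpt1a minus that of Cpt2 was 0.55, −0.14 and −1.07 in KSR2-/- and −1.32, −2.04 and −2.43 in WT, higher by 1.71 on average and without overlap (two-sided exact permutation p = 0.1, the smallest possible, n = 3 each, for a pair chosen after the values were seen). Slc25a20, the carnitine-acylcarnitine carrier, read 8.92, 10.28 and 10.06 in KSR2-/- and 9.31, 10.38 and 10.38 in WT, with the lowest value of each genotype in mouse 1 and a 95% interval of the difference from −1.3 to 0.76. Acot2, a thioesterase that frees fatty acids from CoA in the matrix, read 7.79, 7.75 and 7.47 in KSR2-/- and 8.57, 8.34 and 7.93 in WT. It was lower without overlap (difference −0.61, SE 0.21, limma adjusted p = 0.325), and it was the only gene whose lowest value came from KSR2-/- 3. Acot2 has a near-identical neighbour, Acot1, so its probes may read both.

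In the beta-oxidation spiral all 9 genes had a lower mean in KSR2-/-, with a median of −0.27 that came to −0.12 without KSR2-/- 1, where Acaa2 was at 0.28. Without WT 1 the median was −0.45. Echs1, the short-chain enoyl-CoA hydratase, read 8.96, 9.23 and 10.08 in KSR2-/- and 10.47, 10.85 and 10.23 in WT. The groups did not overlap (difference −1.09, SE 0.32, limma adjusted p = 0.277), with −1.56 in the high-number set and −0.15 in the low-number pair. Hadh, the short-chain 3-hydroxyacyl-CoA dehydrogenase, differed by −0.45 (SE 0.17) and Acadvl, the very-long-chain acyl-CoA dehydrogenase, by −0.61 (SE 0.24), both without overlap. The 2 other probe sets of Hadh gave −0.61 (SE 0.17) and −0.36 (SE 0.14).

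The other acyl-CoA dehydrogenases, named for the chain length they act on, had smaller differences with intervals that included 0. These were −0.33 (SE 0.24) for Acads, −0.26 (SE 0.22) for Acadm and −0.25 (SE 0.23) for Acadl. The subunits of the trifunctional protein, which carries out the last 3 reactions on long chains, differed by −0.05 (SE 0.24) for Hadha and −0.27 (SE 0.21) for Hadhb. Hadha read 9.23, 9.14 and 9.56 in KSR2-/- and 9.04, 9.81 and 9.25 in WT, so the genotypes were interleaved, and the 95% interval ran from −0.62 to 0.52. The thiolase Acaa2 differed by −0.05 (SE 0.39), with an interval from −0.96 to 0.86.

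The pair of enzymes that prepare unsaturated fatty acids for the spiral were measured. Eci1, the enoyl-CoA isomerase, read 8.17, 9.36 and 9.93 in KSR2-/- and 9.75, 10.7 and 10.46 in WT. Its difference of −1.15 (SE 0.47, limma adjusted p = 0.397) came to −0.66 without KSR2-/- 1, and KSR2-/- 3 lay inside the WT range. Decr1, the dienoyl-CoA reductase, read 10.13, 10.78 and 11.2 in KSR2-/- and 10.74, 11.3 and 11.27 in WT (difference −0.4, SE 0.3). The electron transfer flavoproteins, which pass electrons from the acyl-CoA dehydrogenases to ubiquinone, differed by −0.48 (SE 0.22) for Etfb, −0.46 (SE 0.18) for Etfa and −0.35 (SE 0.18) for Etfdh, their oxidoreductase. Etfb read 10.44, 10.81 and 11.15 in KSR2-/- and 11.1, 11.31 and 11.43 in WT, with KSR2-/- 3 just above WT 1. Etfdh read 9.73, 9.99 and 10.0 in KSR2-/- and 10.07, 10.52 and 10.17 in WT, with no overlap.

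Grouped by pathway, the 19 genes of pyruvate entry and the TCA cycle, which also takes acetyl-CoA from fatty acids, had a median difference of −0.56. Of these, 10 were lower at an unadjusted p under 0.05 and 9 without overlap. The 18 measured genes of fatty acid oxidation had a median of −0.37, with 6 lower and 1 higher at that threshold and 6 lower without overlap. Over all genes 5.38% were lower and 6.71% higher at that threshold, and 8.56% were lower without overlap. The mean of the pyruvate and TCA genes lay at −1.0, −0.56 and −0.26 from the WT mean in KSR2-/- 1 to 3, and that of the fatty acid genes without Cpt1a at −0.83, −0.33 and −0.17. In both groups KSR2-/- 1 lay lowest and KSR2-/- 3 nearest to WT among the KSR2-/- mice. Leaving out KSR2-/- 3 brought 816 genes of the whole array past limma's adjusted threshold, 5 of them among the 37. Pdk2 (−1.35, adjusted p = 0.0113), Echs1 (−1.42, 0.0309), Suclg2 (−1.18, 0.032) and Pcx (−1.37, 0.0332) were then lower, where 1.33% of all genes were, and Cpt1a (1.51, 0.0114) was higher, where 3.16% were. As KSR2-/- 3 lay nearest to WT, leaving it out widened these differences, and no conclusion is drawn from these calls. Without KSR2-/- 1 or 2 no gene of the array passed. Over all alternatives with a test the limma adjusted p ran from 0.0114 to 0.718 for Cpt1a, from 0.032 to 0.718 for Suclg2, from 0.0113 to 0.822 for Pdk2, from 0.0309 to 0.758 for Echs1 and from 0.0332 to 0.758 for Pcx.

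The promoters of genes that stood apart are shown for the contrast between Cpt1a and the rest and between the 2 beta subunits of succinyl-CoA ligase, with Pdhb as a pyruvate entry gene. Each is the 250 bases before the start site on the gene's strand, from RefSeq on GRCm38.p6, at chr19:3323051-3323300 (plus strand) for Cpt1a, chr6:95718847-95719096 (minus) for Suclg2, chr14:73552536-73552785 (plus) for Sucla2 and chr14:8172993-8173242 (minus) for Pdhb. Capitals mark every match, on either strand, to the 8 motifs searched.
Cpt1a: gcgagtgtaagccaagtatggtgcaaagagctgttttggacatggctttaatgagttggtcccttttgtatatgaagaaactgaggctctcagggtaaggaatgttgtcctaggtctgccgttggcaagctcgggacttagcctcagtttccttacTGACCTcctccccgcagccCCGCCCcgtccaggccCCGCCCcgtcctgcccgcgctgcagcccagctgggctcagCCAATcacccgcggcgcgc
Suclg2: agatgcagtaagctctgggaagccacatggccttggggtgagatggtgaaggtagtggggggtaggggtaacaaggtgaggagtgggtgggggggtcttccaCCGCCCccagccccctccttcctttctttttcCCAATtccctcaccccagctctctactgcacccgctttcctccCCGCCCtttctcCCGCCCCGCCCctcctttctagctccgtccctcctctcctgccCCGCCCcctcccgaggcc
Sucla2: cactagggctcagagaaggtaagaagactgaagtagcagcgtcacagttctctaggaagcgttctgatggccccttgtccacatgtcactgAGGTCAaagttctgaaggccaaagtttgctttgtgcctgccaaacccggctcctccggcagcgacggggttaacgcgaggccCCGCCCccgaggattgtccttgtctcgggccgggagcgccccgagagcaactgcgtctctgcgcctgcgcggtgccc
Pdhb: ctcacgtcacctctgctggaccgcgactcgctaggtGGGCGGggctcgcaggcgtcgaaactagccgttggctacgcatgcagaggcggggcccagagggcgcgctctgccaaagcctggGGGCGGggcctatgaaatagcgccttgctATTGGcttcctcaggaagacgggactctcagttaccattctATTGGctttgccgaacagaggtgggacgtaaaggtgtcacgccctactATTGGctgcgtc

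In these windows Cpt1a held 2 GC boxes, 1 CCAAT box and 1 nuclear receptor half-site. Suclg2 held 5 GC boxes, of which a pair shares 1 base, and 1 CCAAT box, whereas Sucla2 held 1 GC box and 1 half-site. Pdhb held 3 CCAAT boxes, all on the opposite strand, and 2 GC boxes. Of the 38 genes 34 had such a window, with 41 windows in all, against 32851 windows of all genes. The GC box (GGGCGG) was found in 53.7% of the members' windows and 32.7% of all windows, and the CCAAT box (CCAAT) in 48.8% and 33.8%. The median GC content was 58.8% in the members' windows and 52.4% in all windows. Windows of the same gene can overlap, and each was counted. The 8-letter core of the NRF1 motif (GCGCATGC) was in 12.2% and 2.26% of windows, in Acadm, Etfa and Etfdh and, as the same site, in 2 overlapping windows of Ogdh. The cyclic AMP response element (TGACGTCA) was in 9.76% and 1.55%, in Mdh2 and in 3 overlapping windows of Ogdh. The ETS core bound by GABPA (CCGGAAG) was in 7.32% and 6.91%, and the half-site (AGGTCA) in 14.6% and 14.0%. The ERR element (TCAAGGTCA) was in 0 of 41 and 0.387% of all windows, and a direct repeat of the half-site with 1 base between, which overlaps the half-site motif, in 0 of 41 and 0.0335%. A match says only that these letters are present.

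Other genes of the same pathways were described from lists fixed for this purpose. Of 17 measured genes of pyruvate and TCA metabolism outside the members, 14 had a lower mean, with a median of −0.57, 8 lower (0 higher) at an unadjusted p under 0.05 and 0 past limma's adjusted threshold. Dhtkd1, an oxoadipate dehydrogenase, had the smallest p (6.08 ± 0.48 in KSR2-/- and 7.15 ± 0.19 in WT, difference −1.08, SE 0.26). Mpc1, a subunit of the mitochondrial pyruvate carrier, differed by −0.93 (SE 0.27). The succinate dehydrogenase subunits Sdha (−0.8, SE 0.26) and Sdhb (−0.82, SE 0.28) followed.

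Of 22 measured further genes of mitochondrial fatty acid oxidation and its control, 17 had a lower mean, with a median of −0.57, 9 lower (0 higher) at an unadjusted p under 0.05 and 0 past the adjusted threshold. Acacb, the acetyl-CoA carboxylase that makes the malonyl-CoA which inhibits carnitine palmitoyltransferase 1, read 5.87, 6.7 and 7.02 in KSR2-/- and 8.58, 9.42 and 7.68 in WT. No KSR2-/- value reached a WT value (difference −2.03, SE 0.48, limma adjusted p = 0.24). Mlycd, which breaks malonyl-CoA down, differed by −0.58 (SE 0.17). Hsd17b10, a mitochondrial dehydrogenase of short branched chains, differed by −1.06 (SE 0.28) and Acad10, an acyl-CoA dehydrogenase, by −0.94 (SE 0.23). In peroxisomal beta-oxidation 8 of 10 measured genes had a lower mean, with a median of −0.42, 3 lower (1 higher) at an unadjusted p under 0.05 and 0 past the adjusted threshold. There Scp2 (−0.56, SE 0.16), Abcd2 (−0.91, SE 0.26) and Ehhadh (−1.04, SE 0.34) were lower and the thioesterase Acot8 (0.43, SE 0.18) higher.

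Cell type markers also differed between the arrays, with 0 past the adjusted threshold in each list. At an unadjusted p under 0.05, 5.38% of all genes were lower and 6.71% higher. Of 11 macrophage markers 10 had a higher mean in KSR2-/-, 5 of them at an unadjusted p under 0.05, and their summed linear intensity was 10405 to 25596 in KSR2-/- and 9206 to 10186 in WT. Of 8 markers of lipid-associated macrophages 7 were higher, all 7 at that threshold, with sums of 13709 to 28033 in KSR2-/- and 12007 to 12504 in WT. The other, Lpl, is also in the adipocyte list and differed by −0.01 (SE 0.14). As the brightest of the 8 on every array, at 13.4 to 13.51 log2, Lpl weighs heavily in these sums. The mean log2 level of the 8 markers lay 3.8, 3.73 and 1.28 above the WT mean in KSR2-/- 1, 2 and 3. Among the KSR2-/- mice, KSR2-/- 3 was nearest to WT both here and in the mean of the 37 mitochondrial genes. KSR2-/- 1 and 2 were close to each other here but lay at −0.85 and −0.4 in that mean. KSR2-/- 3 is also the only KSR2-/- mouse of the low-number pair. Of 9 adipocyte markers 7 had a lower mean, with 3 lower (Retn, Slc2a4 and Adipoq) and 1 higher at that threshold. The higher one was Lep, the gene of the hormone leptin, at 11.8, 12.4 and 12.46 in KSR2-/- and 9.42, 11.13 and 11.76 in WT, without overlap (difference 1.45, SE 0.57). The adipocyte list had sums of 41881 to 64899 in KSR2-/- and 55158 to 61887 in WT, and its mean log2 level lay at −0.75, −0.48 and 0.36 from the WT mean in KSR2-/- 1, 2 and 3. In bulk tissue, fewer cells of a type and less RNA per cell cannot be told apart. The part of these cells in the differences of the mitochondrial genes was not tested.

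Brown and beige adipocyte markers, cells rich in mitochondria, had a lower mean in 7 of 8, with 3 lower and 1 higher at that threshold and sums of 544 to 998 in KSR2-/- and 1258 to 2866 in WT. Cidea read 4.45, 4.93 and 7.23 in KSR2-/- and 8.48, 9.21 and 8.11 in WT, and the respiratory subunit gene Cox8b 7.95, 8.67 and 8.97 in KSR2-/- and 9.51, 10.97 and 10.31 in WT. Both were lower without overlap, as was Ppargc1a at low intensities (difference −1.64, SE 0.29). Cox8b was the brightest of the 8 on every array and Cidea the next on each WT array, so they weigh heavily in these sums. The further lower means did not pass that threshold (Elovl3 −0.29, SE 0.21, Cox7a1 −0.31, SE 0.71, Dio2 −0.07, SE 0.26, and Ucp1 −0.07). The mean log2 level of the list overlapped between genotypes, at −0.19 from the WT mean in KSR2-/- 3 and −0.39 in WT 1. Otop1, a proton channel gene with the smallest p of the list, went the other way, at 7.24, 6.99 and 6.29 in KSR2-/- and 4.65, 5.33 and 4.89 in WT. It was higher without overlap (difference 1.89, SE 0.29, limma adjusted p = 0.174). Ucp1, which defines these cells, read 4.2, 4.24 and 6.25 in KSR2-/- and 3.79, 3.84 and 7.27 in WT, high only in the low-number pair. Of 11 skeletal muscle markers 10 had a lower mean, with sums of 389 to 1240 in KSR2-/- and 292 to 1825 in WT, highest in WT 3, and 1 gene was lower at that threshold. Sums for the mammary epithelium were 121 to 385 in KSR2-/- and 126 to 812 in WT, with 6 of 7 lower. The mean log2 level of this list was 4.04, 4.11 and 5.55 in WT 1, 2 and 3. It was 3.92, 3.94 and 4.5 in KSR2-/- 1, 2 and 3. In the remaining lists with overlapping sums, 8 of 9 lymphocyte, 6 of 8 endothelial and 4 of 6 mesothelial markers had a higher mean and 5 of 7 stromal progenitor markers a lower one. For the erythroid list only 2 of 3 genes were measured, with sums of 201 to 247 in KSR2-/- and 88 to 180 in WT. These sums rest on Alas2 (difference 0.72, SE 0.3). The other gene, Hba-a1, read only 2.91 to 3.13 over all arrays (difference −0.07, SE 0.15). No array lists a marker at 0, since all intensities are above 0.

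**Figure D4:**
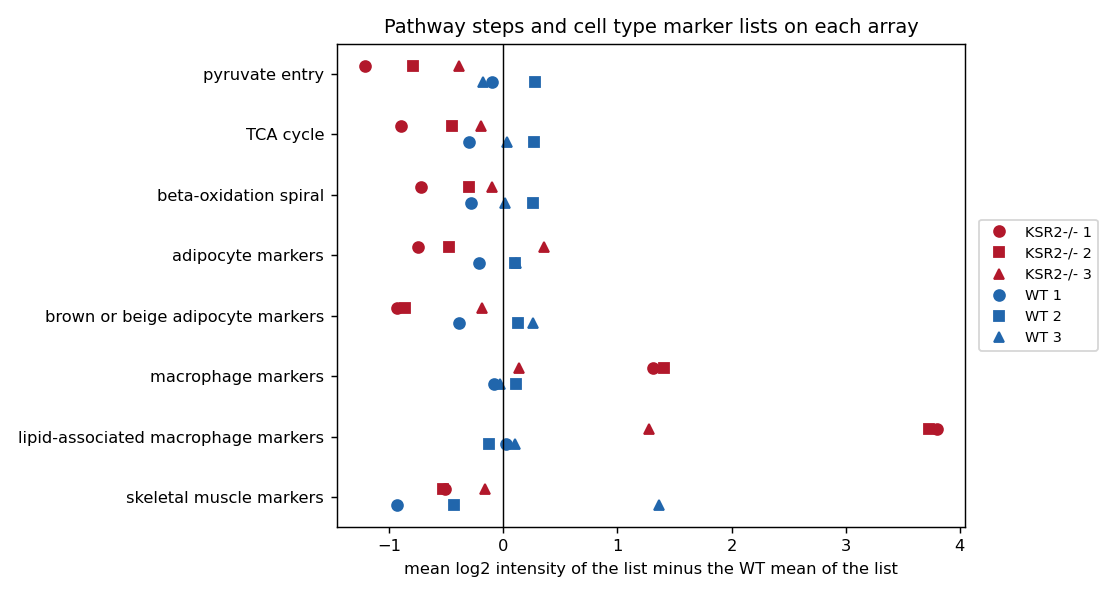
Mean log2 intensity of 3 pathway steps and 5 marker lists on each array (red KSR2-/-, blue WT, symbols for mouse 1 to 3), as the difference from the WT mean of the list. KSR2-/- 1 and 2 lie farthest from WT in the macrophage lists and in pyruvate entry, and in these 3 lists KSR2-/- 3 lies between them and the WT mice.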

How the data were processed

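The table analysed held 45101 probe sets on 6 arrays. The authors deposited RMA intensities, held as linear values. RMA is named in the submitters' processing notes, without a version, and the linear scale follows from the values, with array medians of 22.4 to 24.2. RMA summarises probes over all arrays together, so arrays are not independent at that step. Log2 was taken with no pseudocount, the lowest value being 2.96. Each gene was represented by the brightest of its single-gene probe sets (34945 in all, 34741 matched by gene identifier to RefSeq GRCm38.p6), which left 18193 genes and no filter. The test was limma's moderated one (limma 3.58.1, R 4.3.3, two-sided, Benjamini-Hochberg over all genes, threshold 0.05). The procedure was tested on simulated data. The number of arrays limits precision, with a median SE of 0.22 log2. Single pairs of genes were compared by exact permutation.

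The members, lists and tests were chosen with earlier results of these data known. For KSR2-/- against WT, values per array are given for the 10 members with the smallest p, isozyme pairs, Cs, and the largest and smallest difference in each step. Other pathway lists are described by counts and by the 4 genes with the smallest p, and marker lists by counts and sums, with genes named after their values were seen. Alternatives were a filter on dim genes, the mean of all probe sets, repeated quantile normalization, centring, an intensity trend, the animal number series as a block or alone, and each array left out.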

Additional observations from a re-analysis of the deposited data

How the results depend on the processing

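No paired analysis was possible because the labels pair no animals. Against 1 gene of the array past limma's adjusted threshold, 0 passed when the 2 groups of animal numbers entered as a block. The count was 12 with dim genes filtered, 12 with quantile normalization repeated, 16 with arrays centred on their medians, 10 with an intensity trend, 487 in the high-number set alone and 0 to 816 with 1 array left out (816 without KSR2-/- 3, 9 without WT 3 and 0 without any of the other 4). Among the 37 mitochondrial genes it was 5 in the high-number set alone, 0 to 5 with 1 array left out and 0 under the other alternatives with a test. Genes lower at an unadjusted p under 0.05 numbered 7 to 16 with 1 array left out, with 7 without WT 2, 8 without KSR2-/- 1, 9 without KSR2-/- 2 and 10 without WT 3. Genes lower without overlap numbered 15 to 30 with 1 array left out, 30 without WT 1, and 32 in the low-number pair, where 1 mouse faces 1. Fewer mice make a lack of overlap more common in any gene. The shares of all genes were not computed beside these counts or those at an unadjusted p, so they have no background here. The median difference of pyruvate entry was −1.33 in the high-number set and −0.21 in the low-number pair, and that of the carnitine shuttle step −0.55 to −0.04 with 1 array left out, nearest to 0 without KSR2-/- 1. With 1 array left out the median of the beta-oxidation spiral was −0.45 to −0.12 and that of the unsaturated fatty acid enzymes −1.1 to −0.39. Pyruvate entry had the lowest median of the steps with all arrays, but not without KSR2-/- 2 (−0.78, against −0.85 for the unsaturated fatty acid enzymes), without WT 1 (−0.88, against −1.01) or in the low-number pair.

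None of the genes whose difference changed sign passed the threshold under any of these alternatives, and the cause was not tested. With all probe sets averaged, Ogdh came to 0.07, Dlst to 0.03 and Sucla2 to 0.01. With 1 array left out the ranges were −0.49 to 0.01 for Idh2, −0.69 to 0.07 for Ogdh, −0.25 to 0.15 for Sucla2, −0.56 to 0.15 for Pdk4, −0.62 to 0.15 for Slc25a20, −0.39 to 0.28 for Acaa2 and −0.21 to 0.17 for Hadha. In the low-number pair, which allows no test, Cs was at 0.06, Idh3a at 0.11, Hadha at 0.32 and Acaa2 at 0.04. Of 36 further probe sets of 24 members, 5 had the opposite sign, 0 of them among the 19 at or above the median brightness.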

Other observations

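Transcription regulators of mitochondrial genes and other PPAR targets differed in both directions. At an unadjusted p under 0.05, 5.38% of all genes were lower and 6.71% higher. Of 14 measured regulators 10 had a lower mean in KSR2-/-, with 2 lower at an unadjusted p under 0.05 and 0 past limma's adjusted threshold. Ppargc1a, the coactivator PGC-1α and also among the brown adipocyte markers, read 3.63, 3.4 and 3.92 in KSR2-/- and 5.57, 5.61 and 4.68 in WT (difference −1.64, SE 0.29, limma adjusted p = 0.193), without overlap. Its intensities were low, since 20% of all values on the arrays lay below 3.44 and the median gene mean was 5.96. The corepressor gene Nrip1 differed by −1.01 (SE 0.4), Pparg by −0.8 (SE 0.4) and Lpin1 by −0.51 (SE 0.28). Of 10 measured PPAR target genes outside the members, 5 had a lower and 5 a higher mean, with a median of 0.04, 3 lower (2 higher) at an unadjusted p under 0.05 and 0 past the adjusted threshold. The lipid droplet gene Plin2 read 12.71, 12.71 and 12.23 in KSR2-/- and 11.46, 11.78 and 11.41 in WT, and Angptl4, an inhibitor of lipoprotein lipase, 11.7, 11.83 and 11.75 in KSR2-/- and 11.26, 11.25 and 11.27 in WT. Both were higher without overlap, like Cpt1a, while Ucp3 (−1.08, SE 0.19) and Vnn1 (−1.06, SE 0.17) were lower.

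Genes that link the cycle to the cytosol, among them cytosolic enzymes, mitochondrial carriers and the matrix enzymes Got2 and Pck2, were mixed, with 9 of 12 lower, a median of −0.31, 3 lower (1 higher) at an unadjusted p under 0.05 and 0 past the adjusted threshold. Acly, which splits exported citrate for fatty acid synthesis, read 10.21, 9.95 and 11.69 in KSR2-/- and 13.06, 12.84 and 11.05 in WT, so that within the low-number pair the KSR2-/- mouse was the higher one. Pck1, the cytosolic carboxykinase that takes up oxaloacetate, read 7.42, 8.63 and 10.24 in KSR2-/- and 10.6, 10.89 and 10.95 in WT. Mdh1 differed by −0.5 (SE 0.17), and Got1, the cytosolic aspartate aminotransferase, by 0.91 (SE 0.23) in the other direction.

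Hadha and Hadhb, which encode the subunits of 1 enzyme, lie head to head, and their windows of 250 bases before the start sites overlap by 228 bases. They differed by −0.05 and −0.27 log2, where the median of the beta-oxidation spiral was −0.27. Whether the shared window has a part in these differences was not tested.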
